A study of Homo sapiens with 2 samples.

Results

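RAS, RAF, MEK and ERK proteins form the cascade that passes a growth factor signal from a receptor at the cell surface to the nucleus, and sorafenib was developed as an inhibitor of its RAF kinases. The 7 genes described here are NRAS and HRAS (small GTPases), ARAF and BRAF (RAF kinases), MAP2K1 and MAP2K2 (which encode the kinases MEK1 and MEK2) and MAPK3 (which encodes the kinase ERK1). They were chosen by gene symbol for their place in the cascade, with earlier results of these data known, and are 7 of the 50868 genes in the deposited tables and 7 of the 14686 genes that were measured, that is, had a level of at least 1 CPM in either library. CPM are counts relative to library depth, scaled with the trimmed mean of M values (TMM).

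The study holds 2 mRNA sequencing libraries of cells labelled HepG2, a human hepatocellular carcinoma line. The resistant group, 1 library, came from cells whose genotype label is sorafenib resistance. Per the labels these cells were selected in sorafenib, an oral multi-kinase inhibitor used against liver cancer, from 2.5 µM upwards in steps of 0.5 µM to 7 µM, a dose at which they still proliferated. The parental group, 1 library, carries the genotype label WT and had no treatment. The sources used here do not say whether sorafenib was still present when RNA was taken or whether the resistant line came from 1 clone. With 1 library per group nothing could be tested between the conditions, no value has an SD, and every interval below covers counting error only. In bulk RNA, fewer cells of a type and less RNA per cell cannot be told apart.

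RAS proteins switch between a GDP-bound off state and a GTP-bound on state. In the on state they recruit RAF kinases to the membrane, RAF phosphorylates MEK, and MEK phosphorylates ERK, which then acts on other kinases and on transcription factors. The cascade is set mainly by GTP loading, phosphorylation and feedback on these proteins, none of which RNA counts record. HepG2 is known to carry an activating NRAS mutation, but the tables hold no bases and the genotype was not checked here. Whether these cells carry that mutation is unknown, since the hepatocyte markers given below go against the label.

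Total counts were 16811907 in the resistant and 18067146 in the parental library. Of 14 hepatocyte marker genes, 11 had 0 counts in both libraries, among them ALB, AFP, TTR, APOA1 and APOB. All 14 together had 9 counts in the resistant and 3 in the parental library, and none was measured, so the data go against the hepatocyte identity of the label and the group names below refer only to how the libraries are labelled. Of 9 fibroblast markers 6 were measured, and the summed level of all 9 was 438 CPM in the resistant and 423 CPM in the parental library, with COL1A2 and PDGFRA at 0 in both. Of the 6, 5 had positive log2 ratios and the median was 0.27, and LUM, with 216 and 93 counts, was past the size rule given below at 1.18. For 6 endothelial markers, 2 of them measured, the sum was 6.03 CPM in the resistant and 2.76 CPM in the parental library (CLDN5 and KDR at 0 in both), and CDH5, with 72 and 20 counts, was past the size rule at 1.33. For 7 leukocyte markers, 1 of them measured, it was 9.84 and 5.79 CPM (PTPRC, CD3E and LYZ among those at 0 in both). Their part in the values below was not tested.

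Each of the 7 cascade genes was measured in both libraries, and none differed between resistant and parental cells by as much as 1.2-fold. Their folds lay between 0.901 (MAP2K1) and 1.17 (NRAS), and the 95% counting intervals of all 7 lay within 0.842-fold and 1.24-fold. The size rule used here asks for a log2 ratio, taken on CPM plus 1, of at least 1 or at most -1, and 0 of 7 members were past it, against 338 of 14686 measured genes (2.3%). The median log2 ratio of the 7 members was -0.0048 and that of all measured genes -0.0018. The median absolute log2 ratio was 0.076 for the members, 0.16 for all measured genes and 0.13 for the 10403 genes that reached 10 CPM. The members' levels summed to 605 CPM in the resistant and 593 CPM in the parental library.

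**Figure D1:**
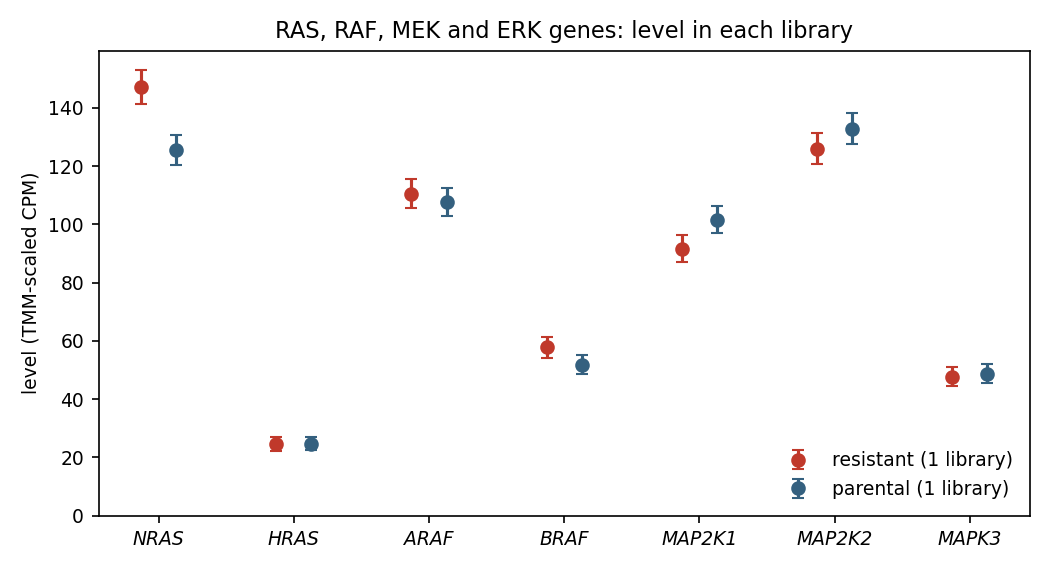
Level of each cascade gene in TMM-scaled CPM (vertical axis, from 0), resistant library in red left of the parental library in blue. Bars are exact 95% Poisson intervals of the count. The bars of the 2 libraries are apart for NRAS (147 and 125 CPM) and MAP2K1 (91.6 and 101.6 CPM) and overlap for the other genes drawn.

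How well a count belongs to 1 gene depends on how much sequence the gene shares with its relatives, so the closest 60 coding bases of the RAF pair and of the MEK pair are shown. They were read from the main coding transcript of each gene in GENCODE 29 (build GRCh38), 5′ to 3′ on the coding strand, with capitals at the bases that differ within a pair. Coding positions count from 1 at the first base of the start codon.
BRAF: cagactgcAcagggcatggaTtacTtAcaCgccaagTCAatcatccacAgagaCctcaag
ARAF: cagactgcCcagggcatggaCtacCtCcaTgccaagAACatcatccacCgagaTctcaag
MAP2K1: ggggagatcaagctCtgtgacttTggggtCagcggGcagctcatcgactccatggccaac
MAP2K2: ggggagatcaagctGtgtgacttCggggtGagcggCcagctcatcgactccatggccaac
The stretches of BRAF (1675 to 1734) and ARAF (1234 to 1293) differ at 10 of 60 bases, and those of MAP2K1 (604 to 663) and MAP2K2 (616 to 675) at 4.

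Even the closest stretches thus differ at several bases. The longest run of identical coding bases was 14 for NRAS and HRAS, 21 for BRAF and ARAF and 38 for MAP2K1 and MAP2K2. Over their 567 coding bases NRAS and HRAS were identical at 414 positions (73.0%). Of the coding 31-mers (runs of 31 bases) of NRAS and MAPK3, 0% occurred in annotated transcripts of other genes, and of those of HRAS and ARAF 0.186% and 0.0559%. The share was 18.5% for BRAF, where 420 of 2268 lay in the pseudogene BRAFP1, 22.3% for MAP2K1, where 248 of 1149 lay in the pseudogene MAP2K1P1, and 33.8% for MAP2K2, where 395 of 1170 lay in AC011005.1. Counts of these copies were low. BRAFP1 had 0 counts in both libraries, MAP2K1P1 had 25 in the resistant and 28 in the parental library, and AC011005.1 had 38 and 42. Summed with MAP2K1P1 and AC011005.1, MAP2K1 had a log2 ratio of -0.14, and MAP2K2 summed with AC011005.1 had one of -0.07.

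Of the RAS genes, NRAS had the largest difference of all 7 members and HRAS the smallest. NRAS (ENSG00000213281; chromosome 1, 114704469 to 114716894, minus strand, GRCh38 as for all coordinates below) had 2467 counts in the resistant and 2274 in the parental library, or 147 and 125 CPM. That is 1.17-fold (95% counting interval 1.11 to 1.24) and a log2 ratio of 0.23. The interval lies above 1, but 35.7% of measured genes had a larger absolute log2 ratio, so a difference of this size was common among all measured genes. This share and those given for genes below include genes of low level. The median absolute log2 ratio was 0.16 for all measured genes and 0.13 for those that reached 10 CPM. No share was computed for genes at the level of NRAS.

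HRAS (ENSG00000174775; chromosome 11, 532242 to 537287, minus strand), the relative of NRAS with the fewest counts of the 7 genes, had 413 counts in the resistant and 448 in the parental library, or 24.6 and 24.7 CPM. The 2 levels were nearly equal, at 0.997-fold (0.870 to 1.14), and 98.2% of measured genes had a larger absolute log2 ratio. NRAS had 5.97 counts per HRAS count in the resistant and 5.08 in the parental library. The ratio of these ratios, which needs no scaling between libraries, was 1.18 (exact conditional 95% interval 1.01 to 1.36). The interval lay just above 1. Counting intervals of single genes lay above 1 for 21.1% and below 1 for 21.2% of measured genes. No such share was computed for pairs, so nothing particular to this pair is shown.

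Sorafenib binds RAF kinases, and both RAF genes described here were near their parental level. BRAF (ENSG00000157764; chromosome 7, 140719327 to 140924764, minus strand), the RAF kinase with the highest basal activity, had 968 counts in the resistant and 938 in the parental library, or 57.7 and 51.8 CPM. ARAF (ENSG00000078061; chromosome X, 47561100 to 47571920, plus strand), the RAF kinase with the lowest, had 1852 and 1951 counts, or 110.5 and 107.7 CPM. The fold was 1.12 (1.02 to 1.22) for BRAF and 1.03 (0.962 to 1.09) for ARAF, and the log2 ratios were 0.15 and 0.04. BRAF's interval lay just above 1, ARAF's held 1, and 50.3% and 86.5% of measured genes had a larger absolute log2 ratio than BRAF and ARAF.

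There were 0.523 BRAF counts per ARAF count in the resistant library and 0.481 in the parental library, a ratio of 1.09 (0.972 to 1.22). BRAF exons overlap those of NDUFB2, a respiratory chain subunit gene on the opposite strand, over 1239 bases. NDUFB2 had 734 counts in the resistant and 808 in the parental library, and the sources used here do not say whether counting used strand. Summed with NDUFB2, BRAF had a log2 ratio of 0.07.

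Both MEK genes were slightly lower in the resistant library, MAP2K1 by more than counting error. MAP2K1 (ENSG00000169032; chromosome 15, 66386817 to 66492312, plus strand) had 1535 counts in the resistant and 1841 in the parental library, or 91.6 and 101.6 CPM. Its fold was 0.901 (0.842 to 0.965) and its log2 ratio -0.15, and 51.9% of measured genes had a larger absolute log2 ratio. MAP2K2 (ENSG00000126934; chromosome 19, 4090321 to 4124129, minus strand) had 2113 and 2408 counts, or 126 and 133 CPM. Its fold was 0.949 (0.894 to 1.01), with a log2 ratio of -0.08, so only the interval of MAP2K1 lay below 1.

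The MEK pair kept nearly the same balance. MAP2K1 had 0.726 counts per MAP2K2 count in the resistant and 0.765 in the parental library, a ratio of 0.95 (0.868 to 1.04). MAP2K1 exons overlap SNAPC5 over 216 bases and the antisense gene AC116913.1 over 432 bases, both on the opposite strand. SNAPC5 had 286 counts in the resistant and 281 in the parental library, and AC116913.1 had 19 and 55. Summed with both, MAP2K1 had a log2 ratio of -0.13.

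At the ERK tier, MAPK3 (ENSG00000102882; chromosome 16, 30114105 to 30123506, minus strand) had 799 counts in the resistant and 884 in the parental library, or 47.7 and 48.8 CPM. The fold was 0.977 (0.887 to 1.08) and the log2 ratio -0.03, and 87.8% of measured genes had a larger absolute log2 ratio. The interval held 1.

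In all, the counting interval lay above 1 for 2 of the 7 genes (NRAS and BRAF) and below 1 for 1 (MAP2K1). At this depth the interval lay above 1 for 21.1% of all measured genes and below 1 for 21.2%, so 2 and 1 of 7 are near the background and show nothing particular to the cascade. The authors' deposited table gives log2 fold changes of 0.22 for NRAS, 0.15 for BRAF, 0.03 for ARAF, -0.01 for HRAS, -0.04 for MAPK3, -0.08 for MAP2K2 and -0.16 for MAP2K1. It calls none of the 7 UP or DOWN, and rests on the same 2 libraries.

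**Figure D2:**
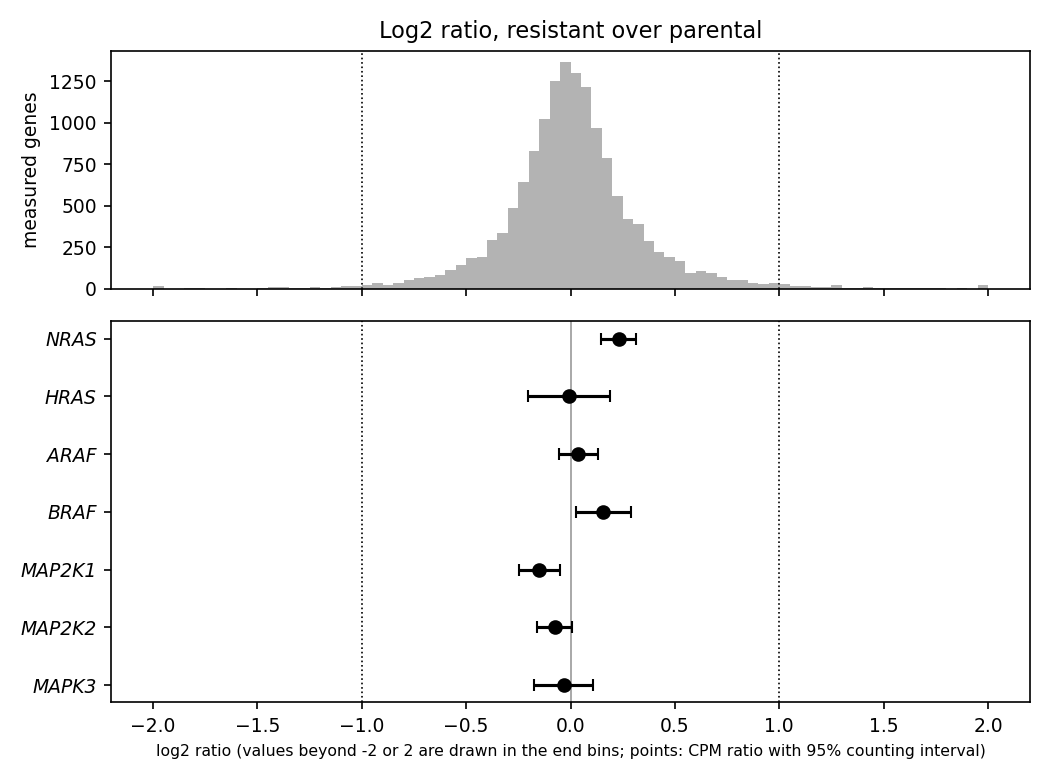
Top, number of measured genes (vertical axis) by log2 ratio of resistant over parental (horizontal axis, bins of 0.05). Bottom, log2 of the CPM ratio of each cascade gene with its 95% counting interval, on the same axis. Dotted lines mark the size rule at -1 and 1. All 7 genes lie in the centre of the distribution, between -0.15 and 0.23.

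The order of the genes by level depends on the length each count is divided by. In the deposited FPKM, counts relative to gene length and depth, NRAS was highest at 33.0 in the resistant and 28.3 in the parental library. ARAF followed at 20.4 and 19.98, MAP2K1 at 17.4 and 19.4 and MAP2K2 at 13.8 and 14.6. MAPK3 (5.66 and 5.82), HRAS (5.45 and 5.50) and BRAF (5.01 and 4.52) were lowest. This order was the same in both libraries, but neighbours were not always apart: counting intervals overlapped for MAPK3 and HRAS in both, for HRAS and BRAF in the resistant library, and for ARAF and MAP2K1 in the parental library.

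The gene lengths that the deposited FPKM imply differ from annotated ones. They came to 8403 bases for MAPK3 and 9131 for MAP2K2, where the main coding transcripts of GENCODE 29 have 1861 and 1734 bases and all exons together 3669 and 5236. For BRAF the implied length was 11484 bases, against 6458 in the main transcript and 23432 in all exons, and for NRAS it was 4449, equal to both. In CPM per kilobase of main transcript, MAP2K2 was highest, at 72.7 in the resistant and 76.6 in the parental library. ARAF followed at 44.9 and 43.8, and BRAF was lowest at 8.94 and 8.02. NRAS stood at 33.1 in the resistant library, above MAP2K1 at 26.9, and at 28.2 in the parental library, where its interval overlapped that of MAP2K1 at 29.8. MAPK3 (25.6 and 26.2) and HRAS (21.4 and 21.5) followed, above BRAF. The interval of MAPK3 overlapped that of MAP2K1 in the resistant library and that of NRAS in the parental library. BRAF had the lowest value and ARAF the second highest on both scales, whereas NRAS was highest in FPKM and MAP2K2 per main transcript.

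**Figure D3:**
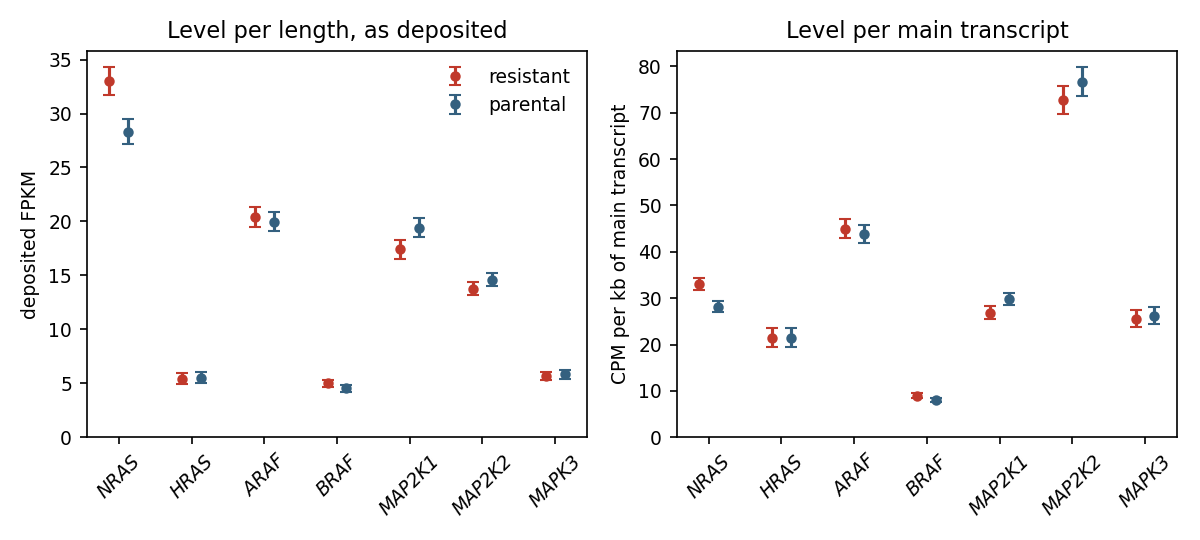
Level of each cascade gene per length, resistant in red left of parental in blue, with 95% Poisson intervals. Left, deposited FPKM, in which NRAS is highest. Right, CPM per kilobase of the main coding transcript, in which MAP2K2 is highest. BRAF is lowest in both panels, though its interval overlaps that of HRAS in resistant FPKM.

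The genes around the cascade were described by 10 lists with 187 different symbols, of which 165 were measured. By the size rule 4 of these were higher in the resistant library and 2 were lower, and the median log2 ratio was -0.01. The 6 past the rule were 3.64% of the measured list genes, against 2.3% of all measured genes. Shares were also above that in the KEGG terms of the deposited annotation, with no test of the difference. The MAPK signaling pathway term, which holds all 7 members, had 211 measured genes, 7 higher, 3 lower (4.74% together) and a median of 0.02. The Ras signaling pathway term, which holds 5 of them, had 144 measured genes, 3 higher, 3 lower (4.17% together) and a median of 0.05.

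Upstream of RAS, the largest difference was in GRB2, the adaptor that links activated receptors to the exchange factor SOS. GRB2 had 813 counts in the resistant and 2918 in the parental library, or 48.5 and 161 CPM, and was 3.32-fold lower (3.07 to 3.59). Its log2 ratio was -1.71, and 0.477% of measured genes had a larger absolute value. GRB2 was the only 1 of 15 measured genes in the list of adaptors and exchange factors past the size rule. Of these 15 genes 4 had positive and 11 negative ratios, with a median of -0.11. The authors' deposited table gives GRB2 a log2 fold change of -1.74. None of the coding 31-mers of GRB2 occurred in another gene's transcripts, and it shares no exons with another gene.

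Genes whose proteins work beside GRB2 lay nearer to 1. Among 7 of them, named after their values were seen, log2 ratios ran from -0.26 to 0.30. SOS1, the exchange factor that loads RAS with GTP, had 2517 counts in the resistant and 3253 in the parental library (0.836-fold, 0.794 to 0.881). Its relative SOS2 had 909 and 1059 counts (0.928-fold, 0.848 to 1.01). SHC1, an adaptor that binds GRB2, was at 0.896-fold (0.837 to 0.959), and PTPN11, which encodes the phosphatase SHP2, at 1.12-fold (1.08 to 1.16). GRB2 took 6.06% of the CPM of these 8 genes in the resistant library and 17.7% in the parental library. The other genes the rule names in this list are IRS2, an insulin receptor substrate gene, at 1.38-fold (1.28 to 1.49), and RASGRP3, an exchange factor gene with only 42 and 72 counts.

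Genes that switch RAS off or attach its lipid tail held none past the size rule. Among 8 measured genes, GTPase-activating proteins and LZTR1, the median log2 ratio was -0.14, with 3 positive and 5 negative. NF1, the neurofibromin gene, had 3692 counts in the resistant and 3860 in the parental library (1.03-fold, 0.988 to 1.08). The largest differences were RASAL2 at -0.51, LZTR1, which targets RAS proteins for degradation, at -0.42, and RASA3 at 0.35. Of 12 measured lipid-tail enzymes and carriers 9 had negative ratios, with a median of -0.08. ICMT, the methyltransferase that finishes the RAS tail, had 2466 counts in the resistant and 3751 in the parental library (0.711-fold, 0.675 to 0.748). FNTB, the farnesyltransferase subunit gene, was at 0.762-fold (0.640 to 0.906), and at a log2 ratio of -0.36 when summed with the read-through gene CHURC1-FNTB. ARL3 was at -0.20.

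Among other RAS-like GTPases, RRAS2 stood out. RRAS2, which encodes the RAS relative TC21, had 741 counts in the resistant and 375 in the parental library, or 44.2 and 20.7 CPM, and was at 2.14-fold (1.88 to 2.42). It was the 1 of 14 measured genes past the size rule, with a log2 ratio of 1.06. The ratio was within the rule at 0.94 with a pseudocount of 5 CPM, and at 0.84 with the deposited FPKM plus a pseudocount of 1 FPKM. The authors' log2 fold change for RRAS2 was 1.09, called UP. Of its coding 31-mers 57.0% also lie in the processed pseudogene AL445183.3, which had 52 and 42 counts, and the sum of both had a log2 ratio of 1.01. RAP1B, a GTPase of cell adhesion, had 1007 counts in the resistant and 1900 in the parental library, with a log2 ratio of -0.79. Of its coding 31-mers 85.4% occur elsewhere, mostly in AC113404.3 with 892 and 996 counts, and the sum with these copies had a ratio of -0.49, so its value is uncertain. RERG, a growth-restraining RAS relative, was at 1.75-fold (1.52 to 2.03). The median of the list was 0.06, with 7 ratios positive and 7 negative.

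**Figure D4:**
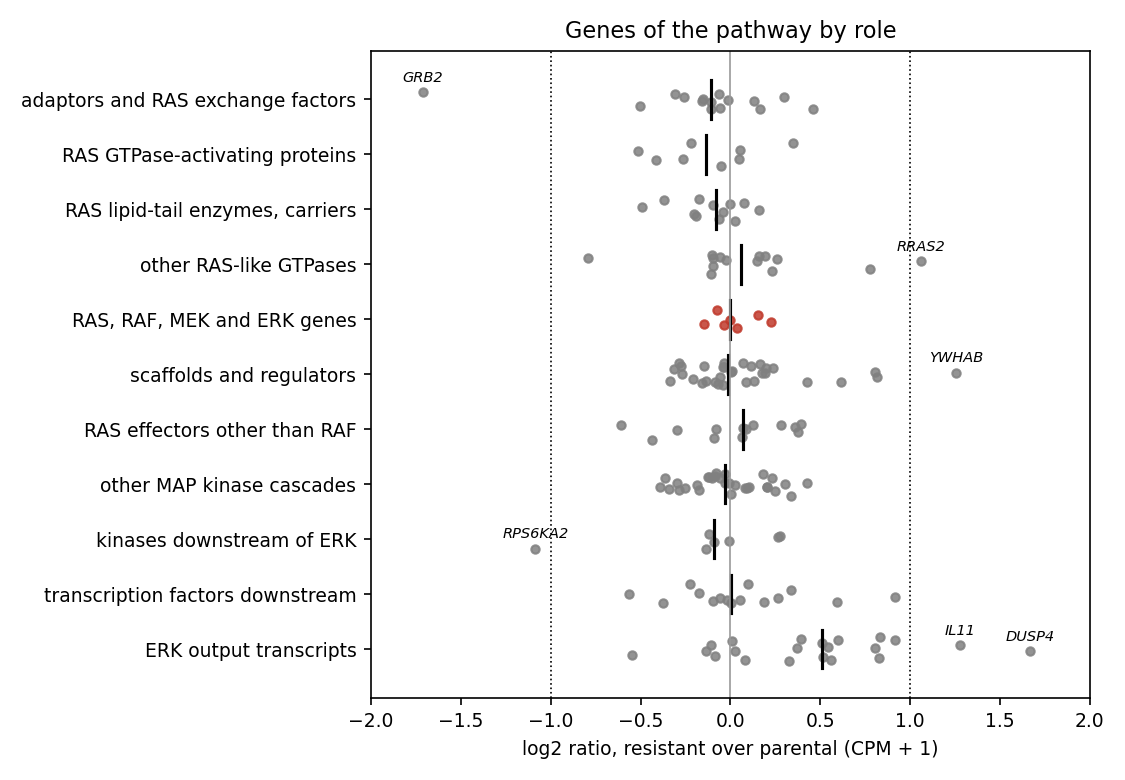
Log2 ratio (horizontal axis) of every measured gene of the 10 lists and of the 7 cascade genes (red), by role from receptor to output. Points are genes, spread vertically only to be seen, black bars are medians, and dotted lines mark the size rule. The cascade genes span -0.15 to 0.23, with GRB2, RRAS2, YWHAB, RPS6KA2, IL11 and DUSP4 past the dotted lines in other lists.

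Proteins that hold or regulate RAF, MEK and ERK were encoded by 32 measured genes. Their median log2 ratio was -0.02, with 16 positive and 16 negative. YWHAB, which encodes the beta form of the phosphoserine-binding protein family 14-3-3 that holds RAF kinases in their inactive and active forms, was past the size rule. It had 3947 counts in the resistant and 1777 in the parental library, or 235 and 98.1 CPM (2.40-fold, 2.27 to 2.54), and a log2 ratio of 1.26 that 1.24% of measured genes exceeded in absolute value. The other 5 genes of this family in the list, named after their values were seen, ran from -0.07 to 0.18. YWHAZ, the most abundant of them by CPM, had 12931 counts in the resistant and 12470 in the parental library (1.12-fold, 1.09 to 1.15). YWHAB thus took 9.62% of the CPM of the 6 genes in the resistant and 4.41% in the parental library, while their sum was at 1.10-fold.

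SHOC2, the scaffold that brings the phosphatase PP1 and the GTPase MRAS to RAF and removes an inhibitory phosphate, had 1761 counts in the resistant and 1081 in the parental library. Its fold was 1.76 (1.63 to 1.90) and its log2 ratio 0.81, within the size rule. Its partners, named after their values were seen, lay nearer to 1. MRAS was at 1.15-fold (0.963 to 1.38), and the PP1 catalytic genes PPP1CA, PPP1CB and PPP1CC at 0.909-fold, 0.905-fold and 1.09-fold.

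Scaffolds of MEK and ERK differed in both directions. LAMTOR1, the membrane anchor of the complex that carries the MEK1 scaffold LAMTOR3 on lysosomes, had 719 counts in the resistant and 433 in the parental library (1.79-fold, 1.59 to 2.03). LAMTOR2 was at 0.801-fold (0.717 to 0.894) and LAMTOR3 at 1.05-fold (0.899 to 1.23). IQGAP1, a scaffold that binds BRAF, MEK and ERK, had 20502 counts in the resistant and 14433 in the parental library, or 1223 and 797 CPM (1.54-fold, 1.503 to 1.569). PEBP1, which encodes the RAF kinase inhibitor protein, was at 0.829-fold (0.797 to 0.862), and the chaperone partner CDC37 at 0.864-fold (0.809 to 0.923). KSR1, a scaffold related to RAF, had 187 and 174 counts, and its interval held 1 (0.94 to 1.44). Of these, LAMTOR1 comes from the rule for named genes and the rest were named after their values were seen.

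**Figure D5:**
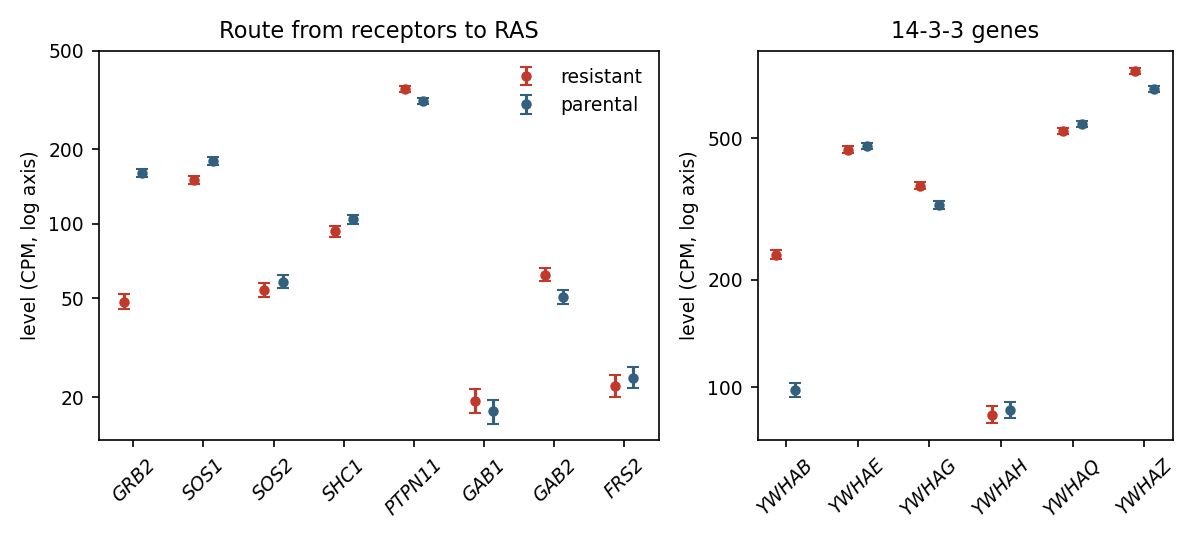
Level in CPM on a log axis, resistant in red left of parental in blue, with 95% Poisson intervals. Left, GRB2 and 7 genes that act beside it, where GRB2 stands at 48.5 CPM in the resistant and 161 CPM in the parental library. Right, 6 genes of the 14-3-3 family, where YWHAB stands at 235 and 98.1 CPM and each of the other 5 genes has similar levels in both libraries (log2 ratios of -0.07 to 0.18).

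Beside the cascade, the RAS effectors other than RAF had 13 measured genes, none past the size rule and a median of 0.07. PIK3R2, a regulatory subunit gene of the lipid kinase PI3K, had the largest ratio, -0.61. It shares exons with the read-through gene AC007192.1, which had 7 counts in the resistant and 610 in the parental library. The sum of both had a ratio of -0.93, outside the counting interval of PIK3R2, so the value of PIK3R2 is uncertain. RGL3 was at -0.44, or -0.39 summed with EPOR, whose exons it overlaps, and RGL1 was at 0.39. A list of JNK, p38, ERK5 and atypical MAP kinase genes with further MAP2K and MAP3K genes had 30 measured. None was past the size rule, and the median was -0.03. The largest ratios in this list were MAP3K14, the kinase NIK, at 0.43, MAPK7, which encodes ERK5, at -0.39, and MAPK11 at -0.36.

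Downstream of ERK, the listed kinases and transcription factors gave medians of -0.09 and 0.0009, the second of which was below 0 under 3 of the scalings tried. Among 7 measured kinases RPS6KA2 was past the size rule, with only 9 counts in the resistant and 41 in the parental library. Its log2 ratio was -1.09, and -0.39 with a pseudocount of 5 CPM. Its deposited FPKM were only 0.035 in the resistant and 0.15 in the parental library. With a pseudocount of 1 FPKM added to these, the ratio was -0.15. The authors' log2 fold change for RPS6KA2 was -2.08, called DOWN. MKNK1 at 0.28, or 0.20 summed with the overlapping MOB3C, and RPS6KA4 at 0.27 were the next largest. RPS6KA3, which encodes RSK2, had 5028 counts in the resistant and 5897 in the parental library and was at 0.922-fold (0.887 to 0.957). Among 15 measured transcription factors none was past the rule, with FOSL1 at 0.92, JUN at 0.60 and MYC at -0.56. With the deposited FPKM plus a pseudocount of 1 FPKM, FOSL1 was at 0.52 and MYC at -0.31. The authors' log2 fold changes were 1.12 for FOSL1, called UP, and -0.64 for MYC, not called.

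Transcripts that ERK activity is known to raise, many of them feedback inhibitors of the cascade, had the highest median of the 10 lists, 0.51. Of the 21 measured genes 17 were positive and 4 negative, the lowest at -0.55, against 7292 positive of all 14686 measured genes. DUSP4, an ERK phosphatase gene, had 563 counts in the resistant and 179 in the parental library (3.40-fold, 2.87 to 4.05), and IL11 had 109 and 38 (3.10-fold, 2.13 to 4.61). These 2 were past the size rule, or 9.52% of the measured list genes, against 2.3% of all measured genes. IL11 was past it only in part of the alternatives. It was at 0.70 with a pseudocount of 5 CPM and 0.82 with the deposited FPKM plus a pseudocount of 1 FPKM. The authors' log2 fold change for IL11 was 1.62, called UP. The number past the rule was 1 under either of these pseudocounts and with a minimum of 10 CPM, and 5 with a pseudocount of 0.1 CPM. The median was 0.30 with the deposited FPKM plus 1 FPKM, and 0.38 with a minimum of 10 CPM. That this list was higher was known from earlier results of these data and is not independent support.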

How the data were processed

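Per the file headers, the authors deposited whole-number counts and FPKM per gene for 1 resistant and 1 parental library, and a table of their own comparison, from which the log2 fold changes and calls are quoted and the deposited p-values and q-values are not used. Per the submitters' processing notes, bcl2fastq 2.19, HISAT2 2.0.4 and StringTie 1.3.0 were used with build GRCh38. The sources used here give neither counting settings nor strand use. The deposited FPKM equals the count over a gene length and the library's total count.

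From the counts, CPM with TMM factors (edgeR 4.0.16 in R 4.3.3; 0.997 resistant, 1.00 parental) and log2 ratios with a pseudocount of 1 CPM were computed. No model was fitted, since each group has 1 library. Fold intervals are exact Clopper-Pearson 95% intervals of 1 count given the sum of both, the interval of a pair's ratio is exact and conditional on the margins, and level intervals are exact Poisson. PCR copies are not independent molecules, so all cover counting error only. Intervals and the size rule were checked on simulated Poisson counts. That is the model the intervals assume, so the check says nothing about variation between libraries. GENCODE 29 (GRCh38) gave exons, lengths and sequences, and 6 of 7 members have the same coordinates there. Its match to the authors' annotation covers 50111 of 50868 genes.

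Named genes are the 7 members, up to 3 genes with the largest absolute log2 ratio in each list plus those past the size rule (at most 3 for the ERK output list), neighbours and pseudogenes of members, and hepatocyte markers. Others in the text, such as NF1, RPS6KA3, partners of GRB2, SHOC2 and YWHAB, scaffolds and markers of other cell types, were named after their values were seen. No gene was ranked by likeness to a member, since 2 libraries give 1 ratio per gene. The members and lists were chosen with earlier results of these data known. Some close relatives of the members are not reported here.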

Additional observations from a re-analysis of the deposited data

How the results depend on the processing

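The alternatives were 4 other scalings (total count, DESeq2 1.42.0 size factors, TMM without mitochondrial genes, upper quartile), pseudocounts of 0.1 and 5 CPM, and the deposited FPKM. To the deposited FPKM a pseudocount of 1 FPKM was added throughout. Under each, every member's log2 ratio stayed within its counting interval, and 0 members were past the size rule. So did BRAF summed with NDUFB2, and MAP2K1 and MAP2K2 summed with overlapping or copied genes. Sums could not move the other members: NRAS and MAPK3 were not summed with any gene, and the genes summed with HRAS and ARAF had 0 counts. The members' values ranged at most from -0.17 (MAP2K1) to 0.23 (NRAS), and BRAF ranged from 0.07, when summed with NDUFB2, to 0.16. Scaling moved the median of all measured genes by less than 0.1, to -0.02 at most. The number of all measured genes past the size rule was 338 and became 746 with a pseudocount of 0.1, 151 with a pseudocount of 5, 168 with the deposited FPKM and 207 with a minimum of 10 CPM. Of values for named genes and lists, 365 stayed and 26 moved. A gene's value stayed if it lay within its counting interval, and a list median if it moved little against the spread of its list. Counts of genes past the rule had a fixed limit of change. The 7 list medians that changed sign, given next, counted as stayed. A stayed median can thus differ in sign from the main one. No gene's log2 ratio changed sign, but 7 of 90 list medians, all near 0, did. Other RAS-like GTPases (0.06) were at -0.03 with no filter. RAF, MEK and ERK regulators (-0.02) were at 0.0035 with a minimum of 10 CPM. Transcription factors downstream of ERK (0.0009) were at -0.0074 by total count, -0.017 with DESeq2 size factors and -0.0054 by upper quartile. These factors were at -0.0061 with FPKM and -0.0092 with a minimum of 10 CPM. GRB2 ranged from -1.73 to -1.61 and YWHAB from 1.17 to 1.26, past the size rule under each alternative tried. FOSL1 passed the rule at 1.10 with a pseudocount of 0.1 and was at 0.53 with one of 5. With the deposited FPKM, RASGRP3 was at -0.10, MAPK7 at -0.16, MAPK11 at -0.21, RGL3 at -0.29, RGL1 at 0.23 and MKNK1 at 0.18, and the medians of GTPase-activating proteins and of ERK effector kinases were -0.05 and -0.01. Adding 1 FPKM draws the log2 ratio of a gene with a low FPKM towards 0. For RASGRP3, MAPK7, MAPK11, RGL3, RGL1 and MKNK1 the authors' log2 fold changes were -0.67, -0.44, -0.48, -0.48, 0.46 and 0.28. For moves not due to a pseudocount the cause was not tested. The sums with opposite-strand and copied genes and the lengths of main transcripts were added after seeing the data. Leaving out a replicate was not possible with 1 library per group. No paired analysis was possible because the groups share only the number 1. Depth limits HRAS most, whose 413 and 448 counts leave an interval of 0.870 to 1.14, and RPS6KA2 with 9 and 41.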
